A study of Mus musculus with 16 samples.

Results

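The yolk sac endoderm of the early mouse embryo secretes plasma proteins, and 9 genes for such products were followed here across all cells of a chimera study: Ttr, Afp, Trf, Apoa1, Apoa4, Apob, Apoe, Apom and Spink1. They were picked by name for what their proteins are known to do, from the 29453 genes in the matrix. For each gene, the unique transcript counts (UMIs) were summed per library, stage and transferred cell type label, and a level is given as UMIs of the gene scaled to a depth of 1e6 UMIs of the same cells (CPM). The aim was to tell cells that transcribe these genes from cells that carry their free RNA.

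The libraries came from chimeric embryos, made by injecting CD1 mouse embryonic stem cells (ESCs) into WT CD1 blastocysts. The ESCs were Stat3 null (exons 20 to 22 replaced by a neo cassette) and carried a piggyBac H2B-tdTomato transgene under the CAG promoter. Embryos of these 3 stages were dissociated and sorted into tdTomato-positive cells, called null here, and tdTomato-negative host cells, called WT. Each genotype had 2 libraries from E7.5 embryos, 2 from E8.5 and 4 from E9.5. The study classed its E7.5 embryos as large or small when pooling them. Which E7.5 library came from which size could not be told, so libraries of that stage may differ in embryo size. The null cells descend from picked tdTomato lines of these ESCs, whose number is not given in the sources used here. The allele, the line and the passage through culture cannot be told apart, and the WT cells shared each embryo with null cells. The 4 E9.5 libraries of a genotype may come from 2 embryos, and E9.5 p-values take them as separate. Libraries are named A to D within a group, where the letter is a name only.

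Before the placenta takes over, the visceral and extra-embryonic (ExE) endoderm surrounds the embryo, takes up maternal protein through the Cubn and Amn receptor complex, and secretes carriers and lipoproteins much as the liver does later. Ttr carries thyroid hormone and retinol-binding protein, Afp is the main fetal serum carrier and Trf delivers iron. Apob is the structural protein of secreted lipoprotein particles, Apoa1 and Apoa4 belong to high density and intestinal lipoproteins, Apoe targets particles to receptors and Apom binds sphingosine 1-phosphate on them. Spink1 is a secreted serine protease inhibitor. ESCs injected into blastocysts mainly form epiblast derivatives, so most of this endoderm comes from the host. Gut endoderm forms from the epiblast, with some visceral endoderm cells joining it. In droplet sequencing, RNA set free from broken cells enters every droplet of a library at a low and similar rate, in the mixture of its source.

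After removal of 3395 doublet calls and of 596 WT-sorted cells with a tdTomato UMI, 37841 of 41832 cells were analysed, 360 to 4327 per library, with 20682659 to 138613245 UMIs per library. Of these, 237 cells had a yolk sac endoderm label (visceral or ExE endoderm), 1734 an embryonic gut label, and 35845 one of 78 labels outside endoderm. E9.5 WT C and WT D shared 292 cell barcodes, 15.3% of the smaller library, of which 10 carried the same label and 0 were yolk sac endoderm, while no other of the 120 pairs of libraries shared over 8. Stat3 was at 6.14 to 9.31 CPM in the WT and 1.16 to 2.53 CPM in the null libraries, and since the reads come from the 3′ end, past the replaced exons, they do not test the allele. A tdTomato UMI was found in 72.3 to 98.3% of the cells of each null library.

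The promoters of the genes are given first, since the question is whether 9 genes that go together in 1 tissue are transcribed in others. Of the 9 genes, 6 had an entry in the RefSeq promoter table for GRCm38.p6, with 3 start sites for Apoe. Each window runs from 250 bases before to 50 after the annotated start. The windows of Afp (chr5:90490464-90490763, + strand), Apoa1 (chr9:46228380-46228679, + strand) and Apob (chr12:7977427-7977726, + strand) are printed as those of genes with little signal outside endoderm, and that of Apoe (chr7:19699139-19699438, − strand) as that of the gene with the most. Capitals mark motif matches.
Afp: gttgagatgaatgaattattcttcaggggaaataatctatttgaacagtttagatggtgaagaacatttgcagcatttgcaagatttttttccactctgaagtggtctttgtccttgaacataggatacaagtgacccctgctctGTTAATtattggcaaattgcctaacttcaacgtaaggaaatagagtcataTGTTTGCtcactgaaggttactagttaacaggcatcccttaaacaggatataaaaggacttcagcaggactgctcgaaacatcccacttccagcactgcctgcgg
Apoa1: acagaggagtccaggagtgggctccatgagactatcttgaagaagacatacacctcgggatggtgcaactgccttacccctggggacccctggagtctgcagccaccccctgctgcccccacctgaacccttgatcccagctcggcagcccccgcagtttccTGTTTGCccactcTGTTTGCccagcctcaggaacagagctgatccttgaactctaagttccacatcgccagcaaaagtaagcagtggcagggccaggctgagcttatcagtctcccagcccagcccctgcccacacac
Apob: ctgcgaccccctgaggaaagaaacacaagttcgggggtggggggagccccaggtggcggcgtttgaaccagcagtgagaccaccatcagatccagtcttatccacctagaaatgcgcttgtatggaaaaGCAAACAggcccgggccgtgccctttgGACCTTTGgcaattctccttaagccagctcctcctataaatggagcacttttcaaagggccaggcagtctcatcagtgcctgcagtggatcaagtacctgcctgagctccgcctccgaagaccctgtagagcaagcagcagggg
Apoe: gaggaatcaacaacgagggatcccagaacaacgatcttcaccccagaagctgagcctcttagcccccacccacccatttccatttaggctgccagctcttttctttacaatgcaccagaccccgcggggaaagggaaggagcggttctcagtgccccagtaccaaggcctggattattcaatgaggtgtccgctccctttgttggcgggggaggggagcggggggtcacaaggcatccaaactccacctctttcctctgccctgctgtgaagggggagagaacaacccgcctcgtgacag

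Searched on both strands were the HNF1 core GTTAAT, the HNF4 cores CAAAGTCC and CAAAGGTC, the FOXA cores TGTTTAC and TGTTTGC, and the GATA site AGATAA, letters chosen with these sequences at hand. Afp held GTTAAT from base -105 to -100 and TGTTTGC from -55 to -49, counted from the start site. Apoa1 held TGTTTGC at -88 to -82 and again at -75 to -69. Apob held TGTTTGC and CAAAGGTC on the other strand, at -121 to -115 and -94 to -87. The Apoe window printed, and those of Apoa4 and Apom, held none of these letters, whereas a window at a second Apoe start held GTTAAT, CAAAGGTC and TGTTTAC. Of all 32851 promoters in the table, 7.1% held GTTAAT, 1.42% CAAAGTCC, 1.17% CAAAGGTC, 3.65% TGTTTAC, 5.07% TGTTTGC and 11.2% AGATAA. Apoa1 and Apoa4 are neighbours, with 10.2 kb between them on chromosome 9.

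In WT cells of E7.5 all 9 genes were highest under the 2 yolk sac endoderm labels. Ttr was at 5225 CPM in 42 ExE endoderm cells and 4151 CPM in 102 visceral endoderm cells, and its highest level outside endoderm was 16.7 CPM (13 UMIs), in second heart field progenitors. Within these labels the genes did not share 1 order. In both E7.5 WT libraries Apoa1 was higher under the ExE than the visceral label (5109.9 against 1604 CPM in WT A, 4955 against 2642 in WT B), and Apoa4 likewise (466 against 128 and 641 against 196 CPM). Spink1 was the other way round, at 4650.0 against 8467 CPM in WT A and 3422 against 10069 in WT B. For Ttr the 2 labels were closer (6352 against 3885 and 4751 against 4273 CPM), and for Apoe they were 6307 against 5264 and 7807 against 6483 CPM. Labels were set with gene expression, so these differences are descriptions and were not tested.

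All 7 listed markers of visceral and ExE endoderm were higher in WT cells of both labels at E7.5 than outside endoderm. Cubn was at 772 CPM and Amn, its partner, at 910.5 CPM in ExE endoderm, and at 190 and 535 CPM in visceral endoderm, against 0.819 and 3.56 CPM outside. Rhox5 stood apart least, at 940.2 and 852 CPM against 243 CPM outside. Parietal endoderm, the other extra-embryonic endoderm, which secretes basement membrane, had 24 WT cells at E9.5, with Sparc at 21801 and Col4a1 at 16017 CPM. There Ttr was at 14.98 CPM, Apoe at 35.9 CPM, and Apob, Apom, Trf and Apoa4 had 0 UMIs, which allows up to 4.49 CPM each. The products thus marked yolk sac endoderm and not parietal endoderm in these libraries.

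**Figure D1:**
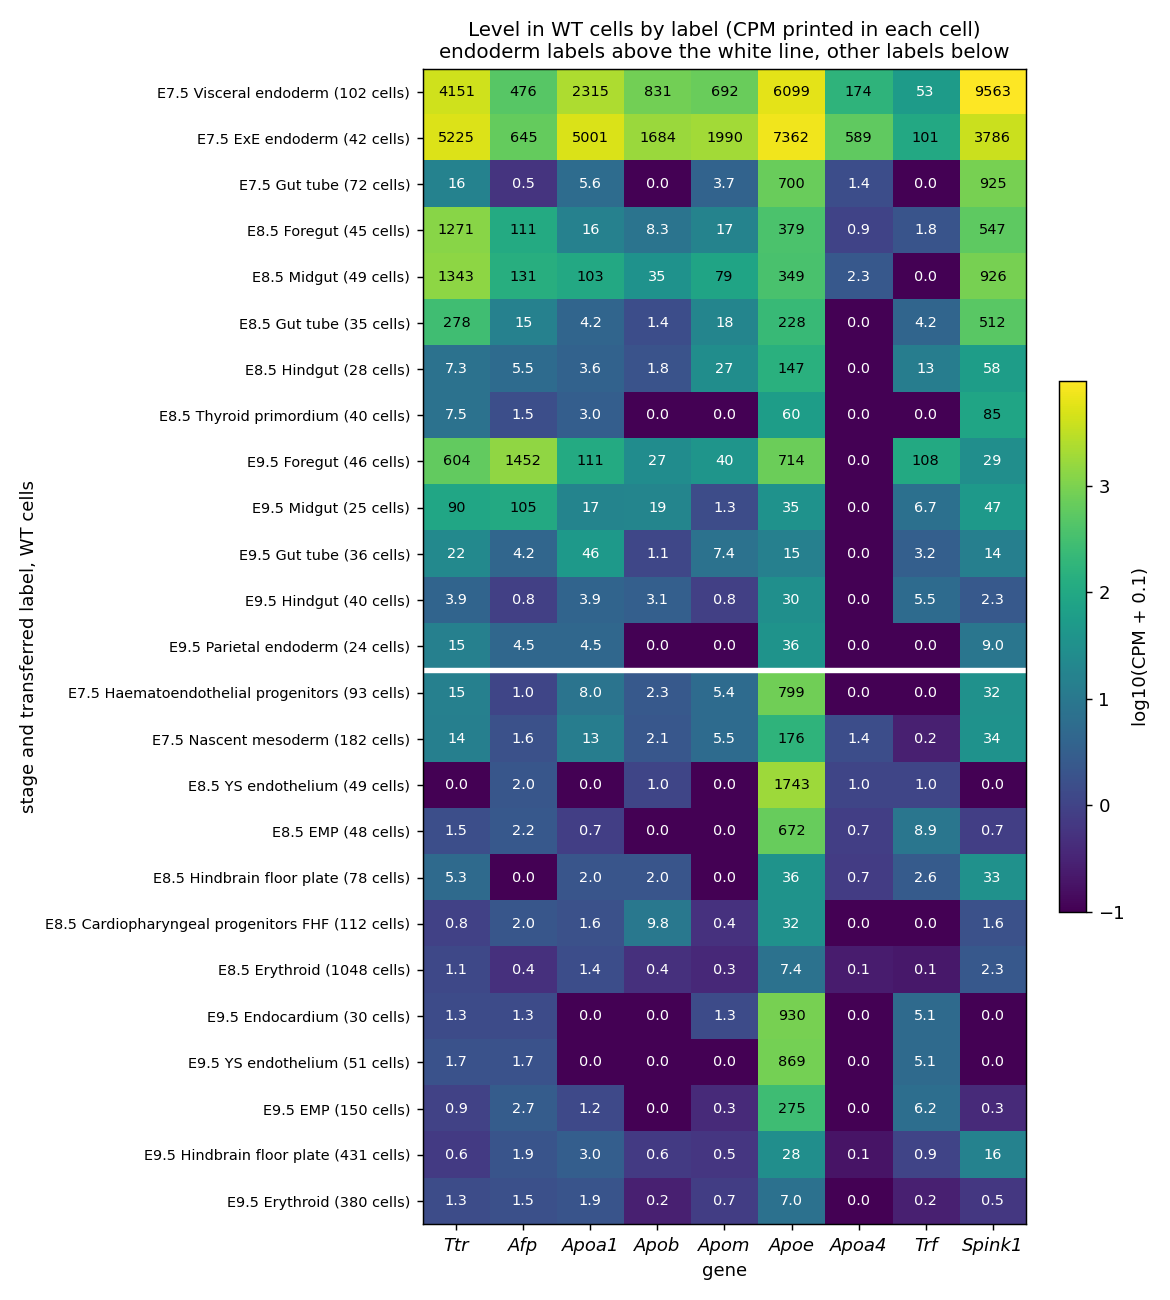
Level of the 9 genes in WT cells by stage and transferred label, colour on a log10(CPM + 0.1) scale with the CPM printed in each field. Drawn are endoderm labels with over 15 WT cells and some of the labels outside endoderm. Left out are pharyngeal endoderm (195 WT cells at E8.5 and 179 at E9.5) and E9.5 thyroid primordium (75). In pharyngeal endoderm Ttr was at 1.01 to 4.51 CPM by library at E8.5 and at 0 to 3.53 CPM at E9.5. The top 2 lines, visceral and ExE endoderm of E7.5, are high for every gene, whereas below the white line only Apoe passes 100 CPM.

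In the gut labels a part of the set was high. At E8.5 Ttr reached 1343 CPM in midgut and 1271 CPM in foregut, and by library the labels overlapped (1238 and 1405 CPM in midgut, 1197 and 1397 in foregut). Spink1 was at 926 CPM in midgut and at 925 CPM in the E7.5 gut tube, where Ttr was only at 16.3 CPM. Apoa4, which was high only in the ExE and visceral labels, had 2 UMIs in E8.5 midgut and 0 in E9.5 foregut. At E9.5 the highest level of Afp outside yolk sac endoderm was in foregut, at 1452 CPM, together with Trf at 108 CPM and Ttr at 604 CPM.

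The E9.5 foregut level came from few cells. Of 46 WT foregut cells, 17 had over 1000 CPM of Afp, and all 17 were in 2 of the 4 libraries. As a group these 17 cells held Afp at 4116, Ttr at 1266, Apoe at 1847 and Trf at 313 CPM, with Alb (albumin) at 226 and Fgb (fibrinogen) at 878 CPM, and 0 UMIs of Cubn, Amn and Apoa4. In the other 29 cells Alb was at 0.927 CPM, 1 UMI, and Fgb at 12.98 CPM. The null foregut had 9 such cells of 36, also from 2 libraries, with Afp at 4079, Ttr at 1716, Trf at 364, Alb at 319 and Fgb at 747 CPM, with 0 UMIs of Cubn and 1 of Amn. These cells thus held carrier proteins and early liver genes with almost no transcript of the endocytic receptor. The line at 1000 CPM was set after the values were seen, so the groups got no test.

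Across 93 sums of WT cells by label and stage with at least 50 cells, Apom and Ttr followed the mean of the 9 genes most closely (Pearson r 0.94 and 0.93), and Apoe (0.64) and Trf (0.57) least. The genes outside the set most like that mean were Pga5 (0.92), Slc34a3 (0.91), Smlr1 (0.89), Hnf4a (0.89), Cyp2b23 (0.89), Tsga8 (0.89), Lgals2 (0.89) and Apoc3 (0.89). Hnf4a encodes a nuclear receptor of endoderm and liver, and Apoc3 another apolipoprotein. The sums share libraries and free RNA, and each member is part of the mean it is set against. ExE endoderm of E7.5 (42 cells), midgut and foregut of E8.5 (49 and 45) and foregut of E9.5 (46) were too small to enter. The values thus rest largely on 1 sum, visceral endoderm of E7.5 (102 cells).

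In WT yolk sac endoderm only 1 E8.5 library, WT B with 19 cells, had over 15 such cells, so the levels of E7.5 and E8.5 are given side by side with no test. Afp was at 501 and 541 CPM in E7.5 WT A and WT B, and at 2067 CPM in E8.5 WT B. Spink1 was at 7329.6 and 7961 CPM at E7.5 and 2830.2 CPM at E8.5. On the log2 scale the fitted differences of E8.5 minus E7.5 were 1.94 for Afp, 1.23 for Trf, 0.89 for Apoa4, 0.56 for Ttr, 0.41 for Apom, -0.05 for Apob, -0.08 for Apoa1, -0.51 for Apoe and -1.48 for Spink1. The mix of the 2 labels differed too (7 of 19 cells were ExE endoderm, against 10 of 41 and 32 of 103), and its part was not tested. In the 4 yolk sac endoderm cells of the other library, E8.5 WT A, Afp was at 11596 CPM, so the 2 E8.5 libraries were far apart.

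Outside endoderm the products had to be read against free RNA. In the 4 libraries with over 15 yolk sac endoderm cells (E7.5 WT A and B, E8.5 WT B and E9.5 null C), the level outside endoderm was set beside the level in the yolk sac endoderm of the same library. For Ttr it was 0.109%, 0.313%, 0.0364% and 0.0189% of the inside level. In E9.5 null C the inside level depends on the cells counted. There 24 cells that also held neural genes had Ttr at 1901 CPM, and the other 2 had it at 11178 CPM. The medians of the 4 libraries were 0.0874% for Afp, 0.0926% for Apom, 0.0866% for Apob, 0.0983% for Apoa4 and 0.126% for Apoa1. For Spink1 the median was 0.173%, for Trf 0.244%, and for Apoe 3.48% (1.85 to 5.80%). Thus 8 genes stood at a few thousandths of the yolk sac level or less, and Apoe well above them.

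A single source of free RNA keeps its genes in 1 ratio, so each gene's ratio to Ttr was compared inside and outside. On the log2 scale the outside ratio exceeded the inside ratio by a median of 0.29 for Afp, 0.23 for Apom, -0.16 for Apoa4, 0.50 for Apob and 0.84 for Apoa1. For Apoe it did so by 5.70, and its lowest library was at 3.87. Spink1 and Trf were higher in the later libraries. Spink1 was at 0.63 and 0.51 in the E7.5 libraries but at 2.26 in E8.5 WT B and 3.19 in E9.5 null C. Trf was at 1.37 and 0.40 against 2.50 and 3.24, on only 5, 14, 24 and 58 UMIs outside endoderm. Stage, genotype and library cannot be told apart among these 4 libraries. Afp, Apom and Apoa4 were within 1 log2 unit of the ratio of the endoderm in all 4 libraries, and Apoe in none. Apob kept to it at E7.5 (-0.49 and -0.40) but not in E8.5 WT B (1.39) or E9.5 null C (1.81). Apoa1 was at 0.73 and -0.02 at E7.5, 0.95 in E8.5 WT B and 1.43 in E9.5 null C.

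**Figure D2:**
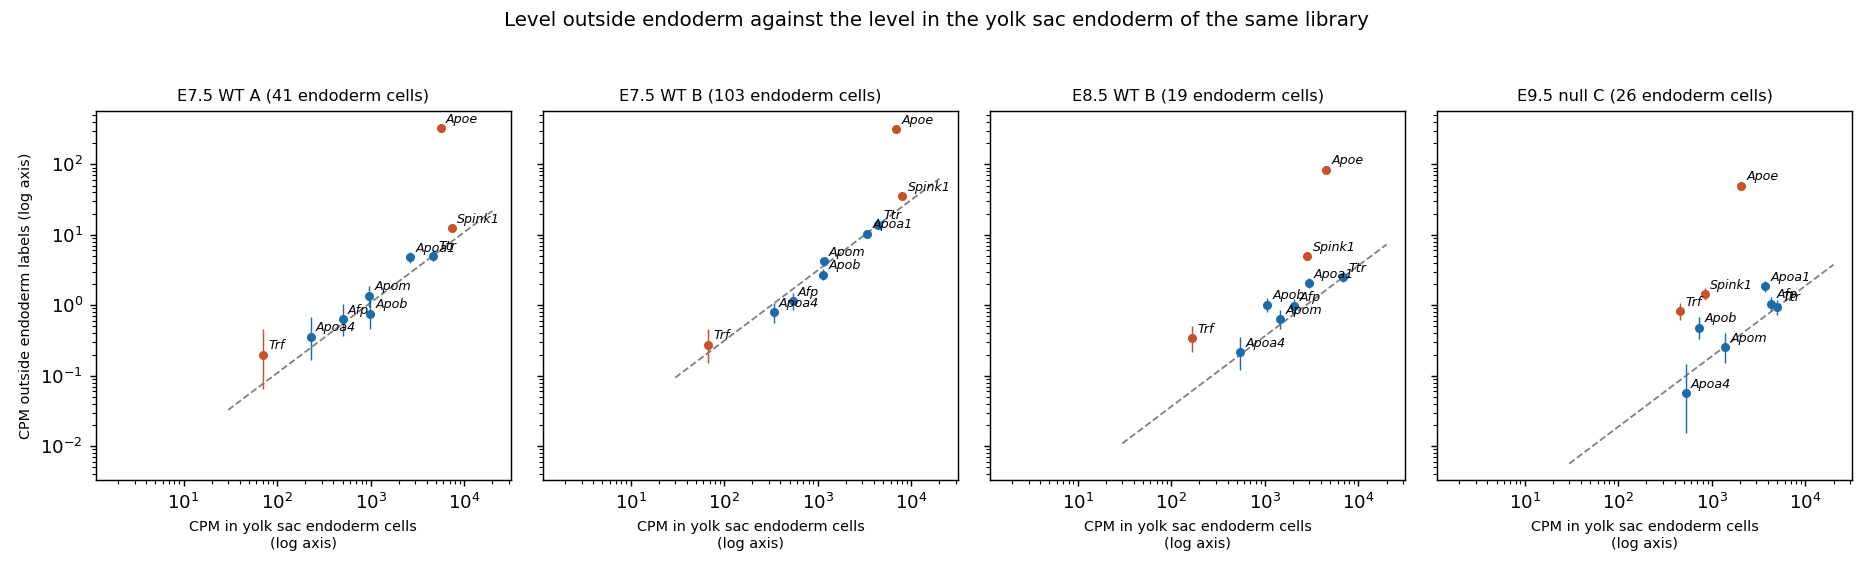
CPM outside endoderm labels against CPM in the yolk sac endoderm of the same library (both log axes) for the 4 libraries with over 15 such cells, 1 point per gene with an exact Poisson interval, which covers counting error only. The dashed line is the ratio of Ttr. In the E7.5 libraries all genes but Apoe and, in WT A, Trf lie within 1 log2 unit of it. In the later 2 libraries Spink1, Trf and Apob lie above it by over 1 unit, as does Apoa1 in E9.5 null C. Apoe lies far above it in all 4.

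The distribution over cells gave a second reading. Each cell was thinned to 10000 UMIs, and shallower cells were left out. In labels that should lack the genes (erythroid, cardiomyocyte, brain and spinal cord labels) the variance over mean of the thinned counts had a median of 0.985 over 5 libraries for Ttr and 1.04 over 9 for Apoa1, near the 1 of random sampling. It was 0.986 over 7 libraries for Afp. The 5 libraries of Ttr held only 14 to 33 thinned UMIs each, and for these genes no E7.5 library entered. With so few UMIs a value near 1 cannot tell free RNA from low and even transcription. For Spink1 the variance over mean was 3.17 over 12 libraries and for Apoe 2.89 over 16, so that their UMIs sat in some cells and not in others. For Spink1 these labels include the hindbrain floor plate. In the other WT cells outside endoderm Ttr was at 1.04 at E7.5 but at 2.67 at E8.5 and 6.47 at E9.5, and Afp at 3.17 at E8.5. In the null cells these 3 later values were 0.981, 1.02 and 1.08. Few WT cells held many of the UMIs: cells over 200 CPM held 30 of the 254 Ttr UMIs at E8.5 (4 cells), 105 of 540 at E9.5 (2 cells, described with the node label) and 17 of the 125 Afp UMIs at E8.5 (2 cells).

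At E7.5 the share of other cells outside endoderm with a Ttr UMI after thinning was 10.8% (245 of 2265) in WT and 0.292% (7 of 2399) in null libraries, and unthinned 29.1% and 1.21%. In the labels that should lack the gene, the thinned share at E7.5 was 17.4% of 23 WT cells and 0 of 50 null cells, which allows up to 6%. Median depths were 31725 and 34938 UMIs in the 2 kinds of WT cell. The exact interval of the latter was 4.95 to 38.8%, around the former, and unthinned the shares were 29.1% and 26.1%, so the 2 could not be told apart with 23 cells. At E8.5 and E9.5 it was 1.95% (exact interval 1.52 to 2.46) and 1.63% (1.34 to 1.96) in WT against 1.70% (1.23 to 2.30) and 1.41% (1.07 to 1.81) in the labels that should lack it, and the intervals, which cover counting error only, overlapped. For Apoe the share of the other WT cells was 83.8% against 87.0% in the labels that should lack it at E7.5, 38.1% against 21.8% at E8.5 and 34.0% against 24.7% at E9.5. At E9.5 the intervals were also apart for Apob, at 0.822% (0.623 to 1.06) against 0.310% (0.165 to 0.529), and for Trf, at 1.24% (0.993 to 1.53) against 0.452% (0.273 to 0.706). For Spink1 they were apart the other way, at 0.433% (0.292 to 0.617) against 1.05% (0.762 to 1.40). All these shares pool the cells of several libraries, so their intervals do not measure the spread between libraries. For Apob in the labels that should lack it, E9.5 WT D was at 0.806%, against 0.144%, 0.177% and 0.145% in WT A, B and C.

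Apoe was transcribed in cells of blood vessels and blood formation. In WT yolk sac (YS) endothelium of E8.5 it was at 1743 CPM, and by library at 1773 and 1651 CPM in WT and 1965 and 2022 CPM in null, which Ttr did not follow, with 0 UMIs in that WT label. At E9.5 endocardium was at 929.9 CPM and YS endothelium at 869 CPM, and their libraries overlapped (608 to 1279 and 511 to 1407.5 CPM). Erythro-myeloid progenitors (EMP) were at 672 CPM at E8.5 and 275 CPM at E9.5. The lowest label outside endoderm was the erythroid one, at 7.39 CPM over 1048 cells at E8.5 and 6.99 CPM over 380 cells at E9.5. YS endothelium thus lay above EMP, and EMP above the erythroid label, at both stages. At E7.5 Apoe was at 799 CPM in haematoendothelial progenitors and at 511 CPM in ExE ectoderm, in the latter at 552 and 475 CPM by library.

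At E8.5 and E9.5 Spink1 outside endoderm was highest in the hindbrain floor plate, the ventral midline of the neural tube. There it was at 33.5 CPM at E8.5, with 35.6 and 31.1 CPM in the WT and 37.0 and 26.5 CPM in the null libraries, and at 16.3 CPM at E9.5, where all 8 libraries were between 9.51 and 22.3 CPM. Ventral forebrain progenitors were at 31.8 CPM at E8.5. Over the E8.5 and E9.5 labels the medians of Spink1 were 1.85 and 0.269 CPM, so the floor plate lay above the label median in every library of both genotypes. At E7.5 the highest label was the primitive streak, at 41.7 CPM, where the 15 labels ran from 17.5 CPM upwards. Trf, the iron carrier, was highest outside endoderm in EMP, at 8.85 CPM (12 UMIs) at E8.5 and 6.19 CPM (43 UMIs) at E9.5, against label medians of 0 and 0.758 CPM. Apob was highest in cardiopharyngeal progenitors of the first heart field at E8.5, at 9.81 CPM (24 UMIs, exact Poisson interval 6.29 to 14.6), and at 9.64 and 10.1 CPM in the 2 WT libraries against 5.16 and 5.68 CPM in null.

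Among labels outside endoderm with over 15 WT cells the highest Ttr level was in E8.5 epicardium, at 24.4 CPM (20 UMIs in 35 cells), of which 1 cell of WT B held 16 UMIs. Single cells with high Ttr outside endoderm were rare. Over 200 CPM of Ttr was found in 1 of 2288 WT cells at E7.5, 4 of 5953 at E8.5 and 2 of 11133 at E9.5, and in 1 of 4591 null cells at E8.5 and 0 at the other stages. Both E9.5 cells were labelled node in WT C, a library that shares barcodes with WT D. They held 52 and 53 Ttr UMIs, 105 of the 540 of all E9.5 WT cells outside endoderm. With these came 656 and 932 UMIs of Gcg (glucagon) and 305 and 458 of Pyy (peptide YY), both peptide hormones. The node genes T, Noto and Shh had 0 UMIs. The data go against their label.

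Null and WT libraries were then compared as a whole. At E7.5 Ttr was at 193 and 214 CPM in WT and 1.21 and 0.483 CPM in null, Apoa1 at 112 and 163 against 1.79 and 1.16 CPM, and Afp at 20.9 and 25.6 against 0.487 and 0.0483 CPM. Apob, Apom and Apoa4 were at 9.68 to 56.5 CPM in WT and at 0 to 0.520 CPM in null. Apoe was at 551 and 622 against 225 and 232 CPM, and Spink1 at 333 and 418 against 29.6 and 23.8 CPM. For each of the 9 genes both null libraries were below both WT libraries, as for 27.1% of the 15326 genes with at least 10 UMIs. Trf, the lowest, was at 3.05 and 3.30 against 0.155 and 0.0967 CPM.

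The number of endoderm cells moved with this difference. At E7.5 the yolk sac labels held 5.67% and 5.78% of WT cells, 41 and 103 cells, and 0.0921% and 0% of null cells, 2 and 0 cells. They held 93.8 to 97.3% of the Ttr UMIs of the WT libraries but 41.0 and 50.3% of the Apoe UMIs. At E8.5 and E9.5 the yolk sac labels held 0 to 1.63% of cells, and the whole-library levels of all 9 genes overlapped between the genotypes, with Ttr at 31.1 and 55.2 CPM in WT and 48.1 and 134.5 CPM in null at E8.5. At E9.5 Ttr ran from 2.19 to 44.9 CPM in WT and from 11.5 to 39.5 CPM in null. Over the 3 stages an exact two-sided permutation test of genotype within stage (2520 arrangements, smallest possible p 0.000794) gave no p under 0.225 for any of the 9 genes. For Ttr the mean difference of log2(CPM + 1) was -1.75 (exact permutation p = 0.294), made of -6.82 at E7.5, 0.94 at E8.5 and 0.61 at E9.5. The values depend on null-sorted cells without a tdTomato UMI. Without them Ttr in null was at 36.5 and 58.5 CPM at E8.5, and at 3.74, 1.97, 39.4 and 11.8 CPM at E9.5, and the mean difference was -2.43 (exact permutation p = 0.125), made of -6.89, 0.15 and -0.55, so that the sign at E9.5 turned. Among the 9 genes the sign turned for 6 at E8.5 and for 7 at E9.5, and for as many with each label given equal weight, whereas at E7.5 it turned for none. It was then -2.12 for Afp (exact permutation p = 0.0413), -2.52 for Apoa1 (0.0310), -2.36 for Apob (0.0246), -1.84 for Apoa4 (0.0230) and -0.86 for Trf (0.0476). With each label given equal weight it was -0.67 for Apob (exact permutation p = 0.0175) and -1.24 for Spink1 (0.0103). These are p-values of 9 tests without adjustment. At E7.5 alone an exact permutation test of 2 against 2 libraries cannot go below p = 0.333. E9.5 alone, where 0.0286 is the smallest p possible, gave an exact permutation p of 0.286 or more for each gene.

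**Figure D3:**
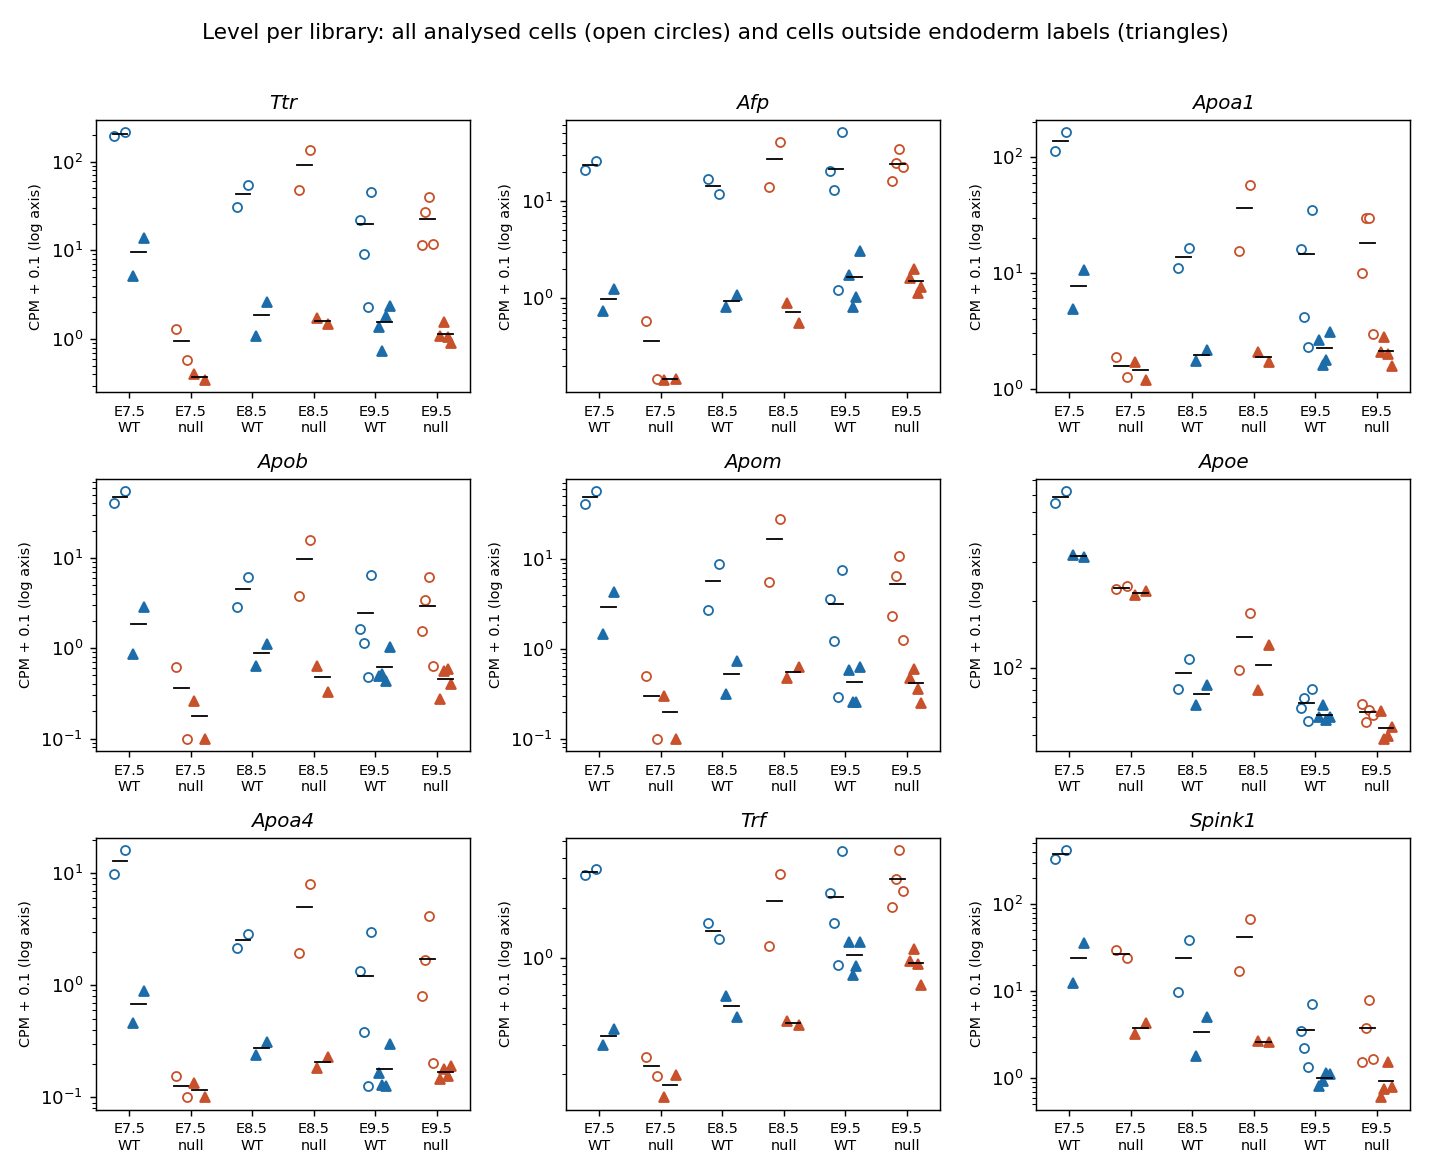
CPM + 0.1 (log axis) of each gene per library, for all analysed cells (open circles) and for cells outside endoderm labels (triangles), by stage and genotype. At E7.5 the null libraries lie below the WT libraries for all 9 genes in both measures, and at E8.5 and E9.5 the genotypes overlap in all cells.

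Outside endoderm the E7.5 difference was still there at a lower level. Ttr was at 5.04 and 13.9 CPM in WT (828 UMIs) and at 0.309 and 0.248 CPM in null (32 UMIs). It fell by 4.99 on the log2 scale (SE 0.63, edgeR adjusted p = 0.0305). Afp was at 0.640 and 1.15 CPM in WT against 0.0457 and 0.0496 CPM, and fell by 4.20 (SE 0.61, edgeR adjusted p = 0.0305). These were 2 of the 8 genes tested, while Trf was below the filter on low counts, and of all 13541 genes 1.18% were called, 1.06% as lower in null. Apoe was at 323 and 316 against 212 and 222 CPM, a difference of -0.51 (SE 0.08, edgeR adjusted p = 0.0435), under the fold required.

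The other 5 did not pass the test. Apoa1 gave -2.41 (edgeR adjusted p = 0.0716), with 4.80 and 10.4 against 1.61 and 1.09 CPM. Spink1, at 12.4 and 35.5 against 3.10 and 4.17 CPM, gave -2.74 (0.177), Apoa4 -4.32 (0.0734), Apom -4.25 (0.114) and Apob -3.86 (0.155). Apob, Apom and Apoa4 had 0 UMIs in null B, which allows up to 0.149 CPM, so their fitted values depend on the prior count. For all 9 genes null lay below WT without overlap, as for 24.8% of the 15187 genes with at least 10 UMIs there, with WT B above WT A for each gene but Apoe.

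The calls turned on single libraries. Without E7.5 WT A 7 of the 9 genes were called, all but Apoe and Trf, with 1.15% of all genes, and without WT B 3 of 7, with 1.7%. Without null A or null B none was, with 0.48% and 0.808% of all genes. Over the 4 omissions the value for Ttr ran from -5.54 to -4.05, with edgeR adjusted p from 0.000286 to 0.509. DESeq2 called 5 of the 8 tested, with 1.82% of all genes. In the same cells other genes, of the lists named below, were lower in null. Apoa2, an apolipoprotein, was at -3.58 (edgeR adjusted p = 0.0356) and Apoc1, another, at -2.23 (0.00283). The receptor pair was at -5.19 (0.0301) for Cubn and -2.48 (0.0484) for Amn. Apoc1 was at 52.8 and 42.0 CPM in WT and at 9.68 and 9.77 CPM in null, above Ttr in each library, and its source was not tested. Cubn was at 0.560 and 0.948 CPM in WT and at 0.0229 and 0 CPM in null.

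By list, 2 of 7 tested lipoprotein partners, 2 of 6 endocytic genes, 0 of 5 other plasma proteins, 0 of 11 receptors of the products and 0 of 13 endoderm regulators were lower in null at E7.5, and 0 of any list were higher. The medians of these lists were -0.03, -0.57, -0.46, 0.11 and 0.32 against 0.01 over all genes. Of all 13541 genes tested, 1.06% were called as lower in null. Of the markers of visceral and ExE endoderm 3 of 5 tested were lower, with a median of -2.48, and of those of ExE ectoderm 2 of 5, with a median of -0.85. Cubn and Amn are in both the endocytic list and the list of visceral and ExE markers, so these counts are not separate. The median of -2.48 is the value of Amn. The ExE ectoderm label had 281 cells in WT and 2 in null, so cells of another extra-embryonic type moved with the genotype too. Markers of gut, parietal endoderm, heart, neural tissue, liver and erythroid cells gave 0 calls, and no macrophage marker passed the filter.

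The lower level was shared by unrelated labels. There were 7 labels with over 15 cells in 2 libraries of each genotype at E7.5. In them 11 of 25 tests of the 9 genes were called in 6 labels, all lower in null, against 0.186% of 65112 tests of all genes. The count was 2 of 19 without E7.5 WT B (0.237% of all tests) and 22 of 32 without WT A (0.419%). Ttr was lower in all 5 labels where it could be tested, from blood progenitors (-5.26, edgeR adjusted p = 0.00134) and lateral plate mesoderm (-5.08) to ectoderm (-5.06), mesenchyme (-3.55) and caudal epiblast (-8.49). These sizes are not exact, since all null cells outside endoderm held 32 Ttr UMIs together. Spink1 was called in 3 of 7 labels and Apoa1 in 2 of 5, with values below 0 in 7 of 7 and 5 of 5. Apom was called too, but could be tested only in ectoderm, where WT held 38 UMIs. Apoe, with a median of -0.53 over 7 labels, was called in none. The labels of 1 library share its free RNA, so these calls are not independent of each other. Genes with few null UMIs also passed the filter on low counts through the WT libraries. Outside endoderm Ttr had 828 UMIs in WT and 32 in null, and Apom 247 and 17. The share called and its direction were thus in part set by which tests could enter.

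At later stages the edgeR fits called none of the 9 genes outside endoderm. Ttr was at 1.00 and 2.50 CPM in WT and 1.62 and 1.37 CPM in null at E8.5, and at 0.638 to 2.24 against 0.801 to 1.46 CPM at E9.5. At E8.5 the null libraries lay below the WT libraries without overlap for Apob (mean 0.382 against 0.779 CPM, pooled WT over null 1.64, counting interval 1.20 to 2.26), Apoa4 (0.108 against 0.177 CPM, 1.84, 0.911 to 3.90) and Trf (0.307 against 0.418 CPM, 1.35, 0.900 to 2.03). These were 3 of 9 genes, against 13% of the 15612 genes with at least 10 UMIs, and none was called. The other 6 genes overlapped there, as did all 9 at E9.5. The calls were 0 of the 9 genes at E8.5, where 0.0494% of 14170 genes were called (0.0282% as lower in null), and 0 at E9.5, where 0.625% of 14715 were (0.516% as lower). Without adjustment 634 and 1521 genes passed 0.05 in edgeR, among the members only Apoe at E9.5 (-0.20, edgeR adjusted p = 0.462). DESeq2 called 0 of the 9 at both stages. Erythroid markers moved with the genotype at E9.5, where 3 of 3 tested were lower in null, with a median of -4.31, and their part in these values was not tested. By label 0 of 29 tests were called at E8.5 (0.0609% of all 169046) and 0 of 45 at E9.5 (0.12% of 324583). The genotype difference itself changed between E7.5 and E9.5 for Ttr, by 4.49 (SE 0.80, edgeR interaction, adjusted p = 0.0259), and for 0 of the other 8, with 0.682% of 15401 genes called. For Ttr 5 of the 12 omissions of 1 library lost this call, with values of 3.53 to 5.05 over the 12: E7.5 null A (edgeR adjusted p = 0.217) or null B (0.108), and E9.5 WT A, null A (0.0554) or null C (0.0548). Over the 3 stages together the exact permutation p outside endoderm was 0.0222 for Apob, 0.0310 for Trf, and 0.0508 or more for the other 7 genes, in 9 tests without adjustment. The mean differences of Apob and Trf were -0.59 and -0.14.

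The level outside endoderm was set against the share of cells with a yolk sac or parietal endoderm label over the 16 libraries. For Ttr Pearson's r was 0.85 (permutation p = 0.00138) and Spearman's rho 0.60 (permutation p = 0.0169), but without E7.5 WT A and B r was 0.26, and within E9.5 it was 0.04 (n = 8, exact permutation p = 0.933). For Apoa1, Apom, Apoa4 and Spink1 r ran from 0.84 to 0.88 and fell to between 0.06 and 0.31 without these libraries. By rank the relation was closest for Apom, Apob and Apoa4, with rho of 0.78 (permutation p = 0.00062) for Apom and 0.76 for both Apob (permutation p = 0.00089) and Apoa4 (permutation p = 0.00105), and Apob gave r of 0.43 without the 2 libraries. Afp and Trf did not follow it, with r of 0.02 (permutation p = 0.939) and -0.29 (0.295), and rho of 0.11 and -0.08. Within E9.5 Spink1 gave r of 0.78 (n = 8, exact permutation p = 0.0260), the 1 of 9 genes with a p under 0.05 there, but by rank its rho was 0.45, below that of Apob at 0.81. Apoe gave 0.66 over all libraries and -0.29 without the 2. With the percent of UMIs in yolk sac endoderm cells in place of the share of cells, r without the 2 libraries was higher, at 0.51 for Ttr, 0.47 for Apoa1, 0.65 for Apom, 0.58 for Apoa4, 0.52 for Apob and 0.13 for Spink1. Within E9.5 it was then 0.64 for Spink1 (exact permutation p = 0.0901) and 0.74 for Apob (exact permutation p = 0.0143), so the gene that passes there depends on the measure. These are raw p-values of 9 relations.

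Null-sorted cells with a yolk sac endoderm label were looked at for the tdTomato transcript, which every descendant of the injected line should carry. There were 49 such cells, and 13 had no tdTomato UMI. At E8.5 the 7 ExE endoderm cells held 0 tdTomato UMIs, where the rate of their libraries would give 34.7, and held Ttr at 11445, Afp at 6343, Cubn at 786 and Amn at 797 CPM. WT ExE endoderm of E8.5 was at 12683, 7752, 618 and 818 CPM. In E8.5 null B, 4 of these cells held 63.0% of the library's Ttr. The 3 ExE endoderm cells of E9.5 null A and B were alike, with 0 tdTomato UMIs against 50.6 and Ttr at 14808 CPM, and 2 of them held 92.7% of the Ttr of null B. By transcript these cells cannot be told from host cells.

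The 9 null cells labelled visceral endoderm at E8.5 were different. Of them 8 were in E8.5 null A, so the pooled values are mostly of that library. The 1 cell of null B, with 11139 UMIs, held 0 UMIs of Ttr, 2 of Spink1 and 5 of Apoe. All 9 held tdTomato, 52 UMIs against 29.5 at the rate of their libraries. They held Ttr at 3572, Spink1 at 3435, Apoe at 3134 and Hnf4a at 89.5 CPM, but Afp at 9.42, Apoa4 and Trf at 4.71 CPM, Cubn at 42.4, Amn at 18.8 and Rhox5 at 0 CPM. WT cells of that label and stage had Afp at 1307, Cubn at 80.5, Amn at 165, Hnf4a at 32.2 and Rhox5 at 515 CPM. The markers of these null cells were thus mixed, with Hnf4a above and Cubn, Amn, Afp and Rhox5 below the WT cells, and they are called here by their tdTomato and label only. E8.5 WT midgut had Ttr at 1343, Spink1 at 926, Apoe at 349, Apom at 79.1, Cubn at 7.91, Hnf4a at 4.52, Amn at 1.13 and Rhox5 at 13.6 CPM. The null cells thus shared the low Rhox5 with gut, and their Amn lay between gut and the WT cells of their label. They held Apom at 834 CPM.

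E9.5 null C held 26 ExE endoderm cells, 25 of them with tdTomato. They fell into 2 kinds by depth, with a line at 50000 UMIs set after the values were seen. The 2 deep cells (90827 and 96063 UMIs) held 2 tdTomato UMIs against 44.4 at the library's rate, Ttr at 11178 and Tuba1a at 10.7 CPM, and 0 UMIs of Sox2. The 24 shallow ones (11511 to 24075 UMIs) held 79 tdTomato UMIs against 87.2, with Ttr at 1901, Cubn at 150 and Amn at 158 CPM, and also the neural genes Sox2 at 147, Sox11 at 552 and Tuba1a at 1001 CPM. Cells outside endoderm of the library had Sox2 at 157, Sox11 at 650 and Tuba1a at 1061 CPM. Droplets of the second kind thus held both profiles, and both stood in the level given for yolk sac endoderm of that library. Their median doublet score was 0.11, below the 1 at which doublets were called.

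**Figure D4:**
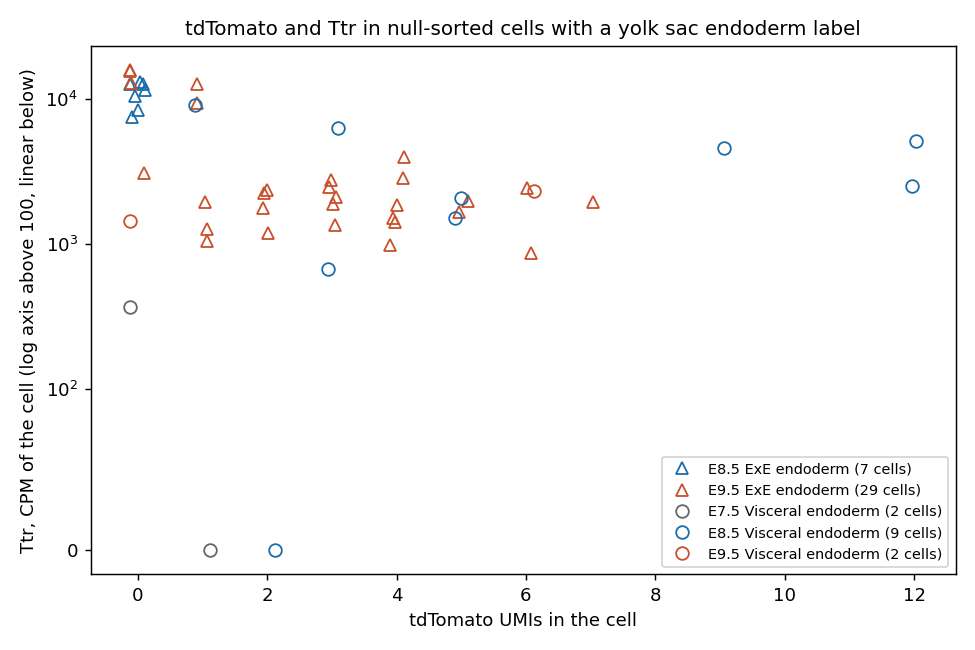
tdTomato UMIs against the Ttr level (CPM, log axis above 100 and linear below) of each null-sorted cell with a visceral or ExE endoderm label, coloured by stage. The 7 E8.5 ExE endoderm cells stand at 0 tdTomato UMIs with Ttr at 7567 CPM or more, and the 24 shallow E9.5 null C cells stand lower, at 872 to 3995 CPM.

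Gut endoderm was the endoderm that both genotypes form, and there Apoa1 differed. At E8.5 it was at 19.5 and 11.9 CPM in the WT and 48.1 and 48.5 CPM in the null libraries. It rose by 1.63 in null (SE 0.22, edgeR adjusted p = 0.0168), the 1 of 7 tested genes called, with 0.0473% of 10581 genes called. In midgut, its highest label, it was at 165.5 and 66.3 CPM in WT and 268 and 178 CPM in null, over 14, 35, 39 and 25 cells, and in foregut at 16.02 and 15.1 against 44.1 and 22.3 CPM. Few midgut cells were very high: 4 of 64 null and 1 of 49 WT cells had over 1000 CPM of Apoa1. In hindgut the direction was the other, with 0 CPM in both null libraries and 2.83 and 5.11 CPM in WT. The groups did not overlap in midgut or foregut, nor in gut endoderm as a whole, where null lay above WT for 3 of 9 genes (Apoa1, Ttr and Apoe). Null lay above WT for 18.1% of 12492 genes in gut endoderm, 15.2% of 9712 in midgut and 16% of 9598 in foregut, so such a separation is common with 2 libraries a group. The value was 1.31 to 2.005 when 1 library was left out, and the call was lost without E8.5 WT A (edgeR adjusted p = 0.0503) or WT B (0.180).

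The rest of the set was not called in E8.5 gut. Ttr was at 339 and 348 CPM in WT and 484 and 701 CPM in null, a difference of 0.78 (SE 0.18, edgeR adjusted p = 0.344), which passed the test, of the 4 omissions of a library, only without null A (1.04, adjusted p = 1.24e-06). Apoe gave 0.92 (edgeR adjusted p = 0.988), Apom 0.71 (0.994), Apob 0.64 (0.988), Spink1 0.63 (0.994) and Afp 0.49 (0.994). Spink1 ran from 101 to 340.2 CPM in WT and from 106 to 592 CPM in null, so its libraries spread more than its groups. Of 12 endoderm regulators tested 0 were called, with a median of 0.45, and of 6 gut markers 0, with a median of 0.43, against 0.01 over all genes. The makeup of the gut class differed too, with midgut at 14 of 130 and 35 of 262 cells in WT and 39 of 275 and 25 of 97 in null, and its part in the Apoa1 value was not tested beyond the label values above.

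At E9.5 the gut levels of the 9 genes overlapped. Apoa1 was at 3.25 to 32.9 CPM in WT and 2.37 to 30.8 CPM in null, Afp at 10.2 to 359 against 5.22 to 508 CPM, and Ttr at 24.6 to 117 against 15.96 to 244 CPM. The edgeR fit called 0 of 8 genes tested, with 0.0861% of 10459 genes called and 613 at an unadjusted p under 0.05, none of them a member, and DESeq2 called none of the members. The change of the genotype difference from E8.5 to E9.5 was -1.98 for Apoa1 (SE 1.08, edgeR interaction, adjusted p = 1.00), with 0.00887% of 11277 genes called. An effect at E8.5 alone was thus not shown.

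**Figure D5:**
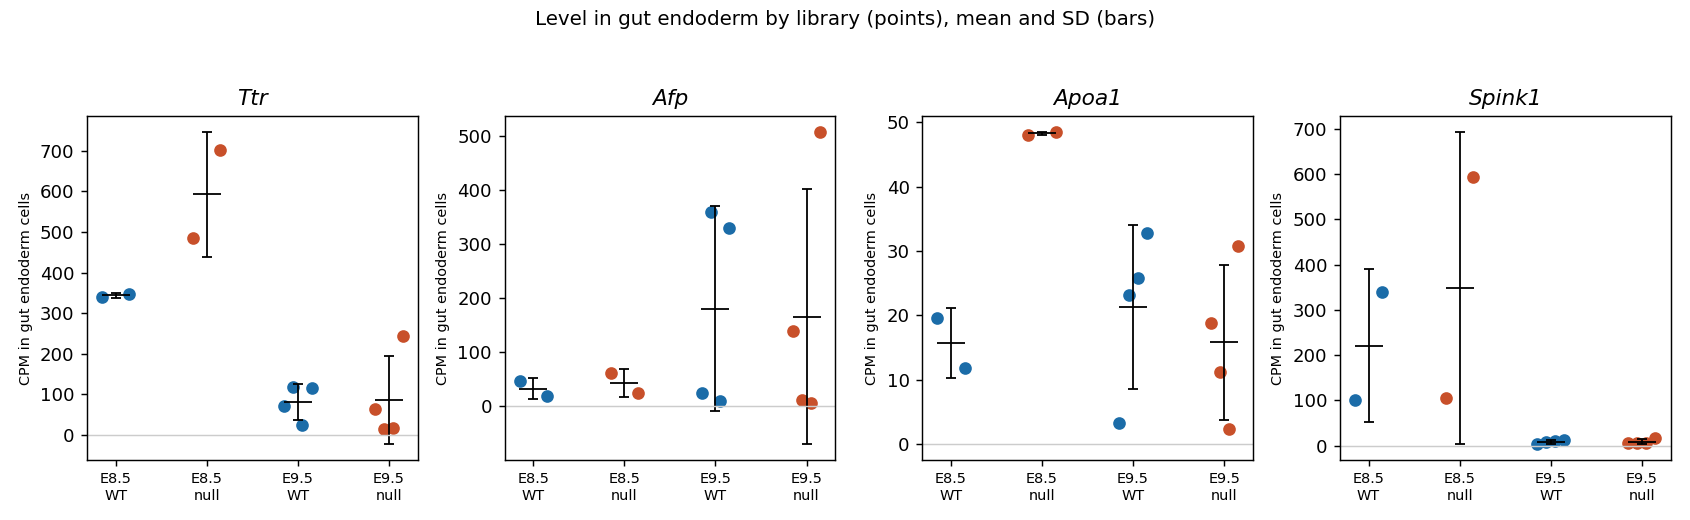
Level (CPM) of Ttr, Afp, Apoa1 and Spink1 in gut endoderm cells per library at E8.5 and E9.5. Points are libraries and bars mean and SD, blue for WT and orange for null. At E8.5 the null libraries lie above the WT libraries for Apoa1 and Ttr and overlap them for Afp and Spink1. At E9.5 the groups overlap.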

How the data were processed

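Sorted tdTomato-positive and tdTomato-negative cells of Stat3 null/WT chimeras were sequenced by the study with the 10x 3′ method. Per the labels and the study's methods, the authors aligned reads with Cell Ranger to mm10 with a tdTomato sequence added, filtered cells on reads, genes and mitochondrial and ribosomal share, scored doublets, and transferred cell type labels from a gastrulation atlas by mutual nearest neighbours. The deposited matrix holds raw UMI counts. The deposited cell table holds the label, stage, sort gate and doublet score of each cell, set by the authors. Its 16 library names match no single sample title, so libraries were placed in groups by its stage and sort columns.

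Doublet calls were left out, as were WT-sorted cells with a tdTomato UMI. Counts were summed per library and label, and the library was the replicate. Per the labels, a null and a WT library came from each pool of embryos, and at E9.5 they name 4 pools of 1 embryo each, whereas the study's methods give 2 embryos, so E9.5 libraries may share embryos. Library names could not be tied to pools, this pairing was not modelled, and p-values measure the spread between libraries. Sums of over 15 cells entered edgeR's quasi-likelihood test (edgeR 4.0.16, R 4.3.3) with TMM scaling, the filter on low counts and Benjamini-Hochberg adjustment over all genes tested. A gene was called at adjusted p under 0.05 and an absolute log2 change over 1. Left out of the fits were 8178 genes of the kinds that the study's noise filter removes. That filter also takes out imprinted genes, which were not filtered here. The SE is the log2 change divided by the square root of F, and is approximate. The fit planned for WT yolk sac endoderm between E7.5 and E8.5 had 1 E8.5 library, so only its values are given. Groups were counted as not overlapping among genes with at least 10 UMIs. Levels per library were tested with exact permutation tests on log2(CPM + 1). Intervals are exact at 95% and cover counting error only, and a count of 0 allows up to 3 counts. Thinning was to 10000 UMIs per cell, and permutation p-values of correlations used 100000 resamples or all arrangements.

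The 9 genes, the gene lists and the motifs were chosen with earlier results of these data known. The genes named are the 9 members, the members of the fixed lists that were called, and the 8 genes most like the mean of the members, besides genes named as markers. Labels in the foregut, node and tdTomato accounts were examined after their values were seen. The edgeR step was tested on simulated counts with 200 genes changed by 2 on the log2 scale. It recovered 94.5% of them outside endoderm at E7.5 (13363 genes), 99.5% at E9.5 (14616 genes) and 93.5% in E8.5 gut (10427 genes). False calls were 6, 3 and 4. The counts were drawn at a spread fitted as a trend over all genes, with no added spread of single genes. These shares thus do not give the power for the 9 genes. Alternatives were DESeq2 1.42.0, no filter, another pseudocount, other cell sets, equal weight to each label, the percent of UMIs as the measure of yolk sac endoderm, and leaving out each library. Python 3.11.15, numpy 2.4.6, pandas 2.3.3, scipy 1.17.1 and matplotlib 3.10.9 were used.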

Additional observations from a re-analysis of the deposited data

Results flagged for a closer look

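The genotype difference of Ttr outside endoderm labels differed between E7.5 and E9.5 by 4.49 on the log2 scale, in the edgeR test of that difference itself, and 5 of the 12 omissions of 1 library lost the call. In 54 groups of 4 libraries, 1 library stood far from the other 3 in 3 cases, by Dixon's 95% criterion, and chance gives about 1 in 20 groups. E9.5 WT A had Apoa1 at 3.25 CPM in gut endoderm, with a gap of 0.839 of the range. E9.5 WT D had Apoa4 at 0.219 CPM in gut endoderm, which is 1 UMI, where the other 3 WT libraries had 0 UMIs, so the gap of 1 was fixed by that UMI. E9.5 WT D had Apob at 0.935 CPM outside endoderm, with a gap of 0.843 of the range.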

How the results depend on the processing

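Of the values that answer a comparison, 115 under other settings and 349 without 1 library kept their direction and side of the threshold, or stayed within 1.5 times of a count, 12 and 35 did not, and none of these reversed. For the exact permutation tests this side was judged on a p adjusted over the genes of the set, which is not printed here. By the unadjusted p given above, whole-library Afp, Apoa1, Apob, Apoa4, Trf and Spink1 did cross the threshold under other settings. The count takes these as having kept their side, so it does not describe the stability of the printed permutation p-values. The parts of the whole-library differences at E8.5 and E9.5 did turn, as given above, without null-sorted cells lacking a tdTomato UMI and with each label given equal weight. Outside endoderm parts turned as well, for 2 genes at E8.5 and 1 at E9.5 with equal weight. With a pseudocount of 0.1 CPM 2 turned at E9.5, and without null-sorted cells lacking a tdTomato UMI 1 turned at E8.5. With DESeq2, 5 of the 8 genes tested were called outside endoderm at E7.5 (2 with edgeR), and of all genes 246 at E7.5 (160), 34 at E8.5 (7) and 154 at E9.5 (92), and 15 in E9.5 gut (9). With no filter on low counts, 249 genes were called outside endoderm at E7.5, 62 in E8.5 gut (5) and 18 in E9.5 gut, and by label 26 of 62 member tests at E7.5 (11 of 25) and 2 of 164 at E8.5 (0 of 29), with 0.271% and 0.175% of all tests called. Without null-sorted cells lacking a tdTomato UMI, 7 of 17 member tests by label were called at E7.5 (0.151% of all tests). The fit of WT yolk sac endoderm had 1 E8.5 library, and its variant with no minimum of cells was chosen after seeing the data. The calls of both are left out. The cause was not tested for any of these. Leaving out 1 library gave 0 to 7 members outside endoderm at E7.5, and 64 to 227, 0 to 25 and 40 to 110 genes at the 3 stages. In gut it gave 0 to 2 members and 1 to 102 genes at E8.5, and 5 to 11 genes at E9.5. By label it gave 2 of 19 member tests at E7.5 without WT B (0.237% of all tests called), 22 of 32 without WT A (0.419%), and 8 of 30 and 11 of 34 without null A and null B (0.213% and 0.21%). It gave 1 to 2 of 31 to 37 at E8.5 (0.107 to 0.418% of all tests) and 0 to 1 of 37 to 47 at E9.5 (0.12 to 0.16%). For the change of the genotype difference it gave 0 to 3 members, where the full fit called 0.682% of 15401 genes. It gave 0 without E9.5 WT A, null A or null C, and 3 without E9.5 WT D. The share of all genes called in each omission is not given here, so these counts are not read against it. Where a group kept 1 library, that library is assumed to vary like the others. No paired analysis was possible because the names of the libraries could be tied to no replicate number or embryo pool. Yolk sac endoderm had over 15 cells in 4 of 16 libraries, so its levels could not be compared between the genotypes.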
